A study of Rattus norvegicus with 6 samples.

Results

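The BCL2 family genes examined here were 10 genes read by symbol: the survival genes *Bcl2*, *Bcl2l1* and *Mcl1*, the effectors *Bax* and *Bak1*, and the BH3-only genes *Bid*, *Bad*, *Bbc3*, *Bcl2l11* and *Pmaip1*. All 10 were found, as 10 of the 17315 rows of the deposited tables. They were measured by RNA-seq of poly(A) RNA from HCN cells, a line of neural stem cells (NSCs) from the adult rat hippocampus. Reverse transfection delivered a control Stealth siRNA duplex (siControl) or 1 Stealth duplex against *Derl1* (siDerl1). All samples had 2 days of proliferation medium, followed by 2 days in a quiescence medium that held bFGF (10 ng/mL) and BMP4 (50 ng/mL). Each group held 3 samples, numbered 1 to 3, and all 6 came from this 1 line. The sources do not say that these were separate cultures, so p-values measure the spread between these samples, which may be technical. The values are TPM, transcript numbers relative to all transcripts of a sample and corrected for transcript length, and they keep no read numbers, so the depth behind a value is unknown.

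Proteins of the BCL2 family decide whether the outer mitochondrial membrane stays intact. Bax and Bak1 can form pores in it and release cytochrome c, which starts the caspase cascade, and Bcl2, Bcl-xL (encoded by *Bcl2l1*) and Mcl1 hold them in check. BH3-only proteins report stress to this switch: *Bbc3* (Puma) and *Pmaip1* (Noxa) are known to respond to DNA damage, and *Bcl2l11* (Bim) and *Bbc3* can be induced by Chop, the transcription factor of prolonged endoplasmic reticulum (ER) stress. Derlin-1, the product of *Derl1*, takes part in the removal of misfolded proteins from the ER.

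*Derl1* measured 122, 132 and 128 TPM with siControl and 44.9, 70.8 and 74.0 TPM with siDerl1, so the labels and the targeted gene went together. Its log2 fold change was −1.03 (SE 0.18), with an adjusted p of 0.497 from limma and of 0.00884 when samples of the same number were compared (the replicate block). The block adjusted p was 0.104 without a filter on low values and 0.229 without limma's intensity trend. The neural stem cell genes *Sox2* (445 to 565 TPM), *Nes* (99.4 to 137 TPM) and *Vim* (3008 to 5044 TPM) were abundant in all 6 samples, while *Prom1* was listed at 0 in each. *Nes* did not overlap between the groups, with 113 to 137 TPM in siControl and 99.4 to 111 TPM in siDerl1 NSCs (limma adjusted p = 0.704, and 0.0899 with the block), while of the 9 tested genes of its list 5 were higher and 4 lower (median log2 fold change 0.02). Genes of the oligodendrocyte lineage were abundant too, with *Sox10* between 541 and 787 TPM, and of the 7 genes of this list 4 were higher and 3 lower in siDerl1 NSCs (median log2 fold change 0.02). Of 7 microglia genes, 6 stayed under 1 TPM in every sample and the highest value of the list was 4.93 TPM, and all 5 endothelial genes stayed under 1 TPM. The 5 pericyte or fibroblast genes, 3 of them at 0 throughout, summed to 1.04 to 1.81 TPM in siControl and 2.63 to 3.28 TPM in siDerl1 NSCs. The 6 neuron genes summed to 152 to 176 TPM in siControl and 145 to 171 TPM in siDerl1 NSCs. Of the 4 tested, 3 were lower and 1 higher in siDerl1 NSCs (median log2 fold change −0.20). Without overlap between the groups, *Dcx* and *Syt1* were lower and *Tubb3* higher (limma adjusted p = 0.704, 0.704 and 0.763). Of all genes tested, 13.6% did not overlap. The 5 astrocyte genes summed to 487 to 727 TPM in siControl and 497 to 776 TPM in siDerl1 NSCs, mostly from *S100b* (445 to 708 TPM, log2 fold change 0.01). The 3 tested astrocyte genes were all higher in siDerl1 NSCs (median log2 fold change 0.53). Among them *Gfap* was at 27.7 to 47.0 TPM in siControl and 45.3 to 66.3 TPM in siDerl1 NSCs, higher in all 3 pairs (limma adjusted p = 0.704, and 0.0219 with the block, a call lost without the intensity trend). The part of these cell type genes in the levels of the members was not tested. In bulk samples, fewer cells of a type and less RNA per cell cannot be told apart.

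The 10 genes spanned a wide range of levels. *Bax* was the most abundant, with a median of 237 TPM over the 6 samples (224 to 259 TPM), and alone made up 38.2% of the summed TPM of the family in siControl NSCs. *Mcl1* came next with a median of 129.6 TPM, and its highest sample (149 TPM) lay below the lowest *Bax* sample. *Bad* (median 73.3 TPM) and *Bcl2l1* (median 61.2 TPM) followed. Their ranges overlapped, although *Bad* was above *Bcl2l1* in 6 of 6 samples. *Bak1* (median 40.4 TPM), *Bid* (27.5 TPM) and *Bcl2l11* (21.8 TPM) came next, and *Bid* overlapped with both of its neighbours in this order, each order holding in 5 of 6 samples. *Bbc3* (12.6 TPM) and *Bcl2* (3.44 TPM) were low, and each was separated from the gene above it in all samples. *Pmaip1* had the lowest level and was listed at 0 in 5 of the 6 samples.

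**Figure D1:**
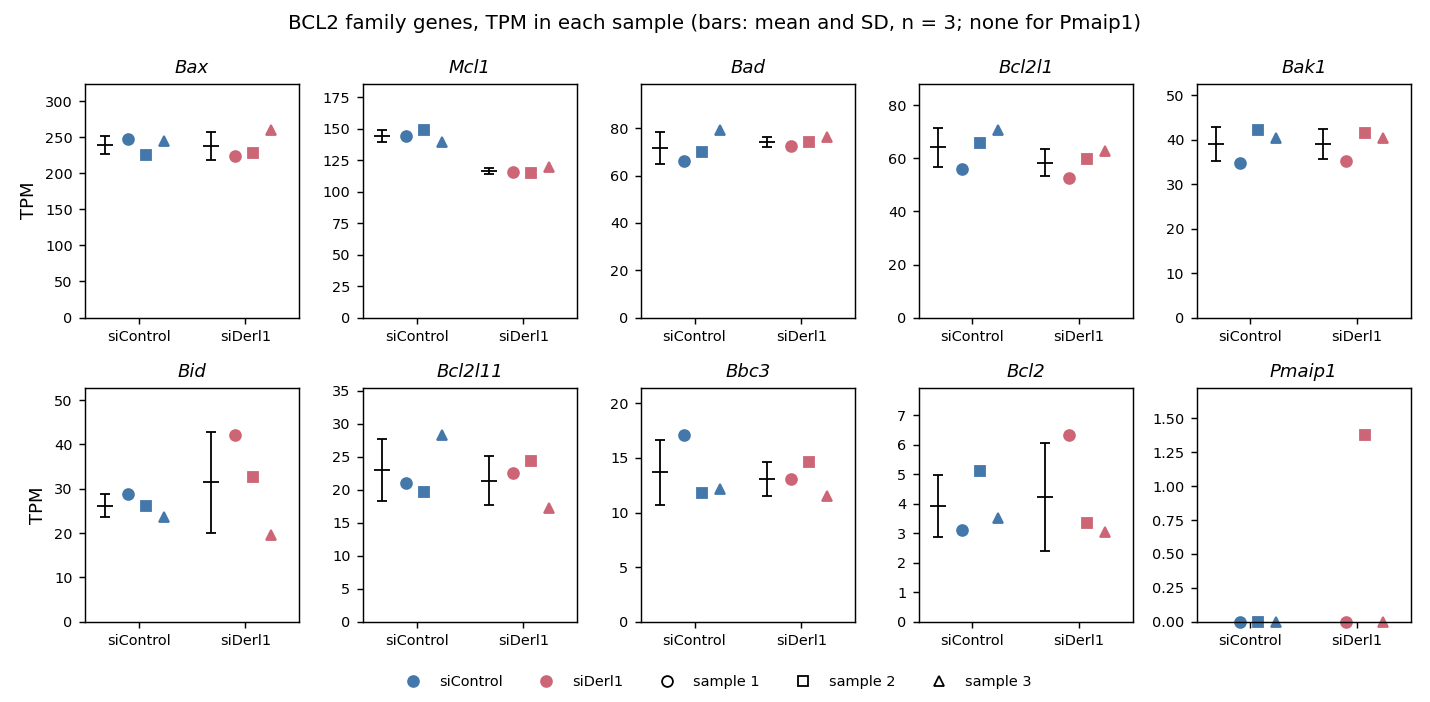
TPM of the 10 BCL2 family genes in each sample, in panels ordered by mean level, each with its own axis from 0. Points are samples (circle, square and triangle for numbers 1, 2 and 3) and bars are the mean and SD of 3 samples, with no bar for *Pmaip1*. The siControl and siDerl1 samples of *Mcl1* do not overlap, and those of the other 9 genes do.

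*Mcl1* was the only tested member whose samples did not overlap between the groups (1 of 9, against 13.6% of all genes tested), lying lower in siDerl1 NSCs. This gene encodes a short-lived survival protein that binds Bak1, Bim and Noxa, and its transcript is turned over quickly. *Mcl1* (NM_021846) measured 144, 149 and 139.7 TPM with siControl and 116, 115 and 119 TPM with siDerl1. All siDerl1 samples thus lay below all siControl samples, with a gap of 20.2 TPM between the nearest ones. The mean was 144 ± 4.48 TPM (SD, n = 3) in siControl and 117 ± 2.41 TPM (SD, n = 3) in siDerl1 NSCs, a difference of −19.1% (p = 0.1 in a two-sided exact permutation test, the least that 3 against 3 samples allow). On the log2(TPM + 1) scale the fold change was −0.30 (SE 0.06, 95% interval −0.44 to −0.17). Its unadjusted p in limma, 0.000971, held rank 16 among the 10331 genes tested. After Benjamini-Hochberg adjustment over all these genes it was 0.622, so *Mcl1* did not pass the threshold of 0.05.

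The samples of the same number gave *Mcl1* differences of −0.31, −0.37 and −0.22 on the log2 scale for numbers 1, 2 and 3. With the replicate block the adjusted p from limma was 0.0565. With the block and without the samples numbered 1, which leaves 2 pairs, it was 0.00827. It was 0.180 without those numbered 2 and 0.133 without those numbered 3. With all samples, the block adjusted p was 0.165 without a filter on low values and 0.277 without the intensity trend. The ratio of means, 0.809, lay just above the lower of the study's fold limits (above 1.5 or below 0.8). The ratio was 0.797 without siControl sample 3, and 0.788 with the block and without the samples numbered 3, and in those fits *Mcl1* passed the limits at an unadjusted p under 0.05.

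Short stretches of the *Mcl1* and *Bcl2l1* promoters (RefSeq, assembly GRCr8, while the reads were mapped to rn6) show which motifs lie close to the starts of the 2 members with the same direction in all pairs, which were picked after their values were seen. In *Mcl1*, the letters CCGGAAG, as bound by ETS factors, were found 133 bases before the start, and GGGCGG, as bound by Sp1, 91 bases before it on the opposite strand. In *Bcl2l1*, the letters TTCNNNGAA, as bound by STAT factors, are shown because the gene is a known STAT5 target. They occurred 229 and 148 bases before 1 of its 4 listed starts, and the same letters lie 94 and 13 bases before another. Capitals mark the motif, and each is written 5′ to 3′ on the strand of the gene:
Mcl1, chr2:185908027-185908049, plus strand, ETS: gcactcagCCGGAAGagccacgg
Mcl1, chr2:185908069-185908090, plus strand, Sp1: ggaaactcCCGCCCctctcccc
Bcl2l1, chr3:161763463-161763487, minus strand, STAT: aaaggcatTTCGGAGAAaagggggt
Bcl2l1, chr3:161763382-161763406, minus strand, STAT: aatttgacTTCATTGAAgtctctta

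Both strands were searched from 250 bases before to 50 bases after each start, in 11 windows of 8 members (*Bax* and *Bbc3* had no entry). The STAT letters were in 3 of the 11 windows (2 of *Bcl2l1* and the window of *Bad*) against 8.87% of all 33469 promoter windows. GGGCGG was in 6 of 11 against 33.1%, and CCGGAAG in 4 of 11 against 8.75%. TGATGNAA, a C/EBP-ATF composite motif, was in 4 of 11 against 3.98%, and 3 of these 4 belonged to *Bcl2l1*, whose overlapping windows share 1 of the matches. The *Mcl1* window held neither the STAT nor the C/EBP-ATF letters. TGACGTCA, the cyclic AMP response element, was in 0 of 11 against 1.83%. A match of letters is a description and not a binding site.

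*Bcl2l1*, whose long product Bcl-xL protects NSCs and neurons from mitochondrial death, measured 56.05, 65.9 and 70.5 TPM with siControl and 52.7, 59.6 and 62.8 TPM with siDerl1. The siDerl1 sample was the lower one in all 3 pairs of the same number, with differences of −0.09, −0.14 and −0.16 on the log2 scale, but the groups overlapped. The log2 fold change was −0.13 (SE 0.11, adjusted p = 0.866 from limma). The 95% interval of the difference ran from −23.6% to 9.0%. The row pools 4 RefSeq transcripts, so the long and the short isoform, which have opposite functions, cannot be told apart here.

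*Bcl2*, the founding survival gene of the family, was the least abundant of the 3 survival genes. It measured 3.10, 5.10 and 3.53 TPM with siControl and 6.34, 3.34 and 3.03 TPM with siDerl1. The highest value of all came from siDerl1 sample 1 and the lowest from siDerl1 sample 3, so the siDerl1 samples enclosed the siControl ones. The log2 fold change was 0.06 (SE 0.28, adjusted p = 0.980 from limma), with an interval from −34.1% to 65.0%. The log2 fold change was −0.21 without siDerl1 sample 1 and −0.06 without siControl sample 1.

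The effectors *Bax* and *Bak1* overlapped between the groups. *Bax* measured 247, 225 and 245 TPM with siControl and 224, 228 and 259 TPM with siDerl1. Its log2 fold change was −0.01 (SE 0.08, adjusted p = 0.985 from limma), with an interval of the difference from −12.3% to 12.2%, the narrowest after that of *Mcl1* among the 9 members tested. *Bak1* measured 34.8, 42.1 and 40.4 TPM with siControl and 35.1, 41.4 and 40.4 TPM with siDerl1. The pairs of the same number differed by at most 0.02 on the log2 scale in either direction. The log2 fold change was −0.00 (SE 0.11, adjusted p = 0.998 from limma), with an interval from −16.0% to 18.7%.

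Among the 4 BH3-only genes tested, *Bid* and *Bcl2l11* had the widest spread on the log2 scale. *Bid*, whose product is cleaved by caspase-8 and carries the death receptor signal to mitochondria, measured 28.8, 26.1 and 23.6 TPM with siControl and 42.2, 32.6 and 19.55 TPM with siDerl1. The siControl samples stayed within a narrow range and the siDerl1 samples lay on both sides of it. The pairs differed by 0.53, 0.31 and −0.26 on the log2 scale, and the log2 fold change was 0.19 (SE 0.25, adjusted p = 0.934 from limma). Without siDerl1 sample 1 it was −0.04, and without siDerl1 sample 3 it was 0.49. *Bcl2l11*, which encodes Bim, a strong activator of Bax and Bak1, measured 21.1, 19.6 and 28.4 TPM with siControl and 22.6, 24.3 and 17.2 TPM with siDerl1. The siControl and siDerl1 samples numbered 3 were the highest and the lowest of the 6. The log2 fold change was −0.10 (SE 0.18, adjusted p = 0.952 from limma).

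*Bad*, a BH3-only gene whose product is held inactive by growth factor signaling through Akt, measured 66.2, 69.9 and 79.2 TPM with siControl and 72.4, 74.2 and 76.4 TPM with siDerl1. All siDerl1 values lay within the siControl range (log2 fold change 0.05, SE 0.08, adjusted p = 0.942 from limma). *Bbc3* measured 17.1, 11.8 and 12.15 TPM with siControl and 13.0, 14.7 and 11.5 TPM with siDerl1. Its log2 fold change was −0.05 (SE 0.17, adjusted p = 0.969 from limma) and the interval of the difference ran from −26.7% to 27.4%. *Pmaip1* had a value above 0 in siDerl1 sample 2 alone, 1.38 TPM, and stood at 0 in the other 5 samples. Its mean was under 1 TPM, so it was not tested.

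Of the 10 members, 9 passed the filter of a mean TPM of at least 1. By adjusted p, 0 of the 9 were called, against 0% of all 10331 genes tested (0 genes in limma, and 692 genes or 6.70% at an unadjusted p under 0.05). By the study's fold limits with an unadjusted p under 0.05, 0 of the 9 were called, against 2.21%. The groups did not overlap in 1 of the 9, *Mcl1*, against 13.6% of all genes, a share close to this background. *Mcl1* was also the 1 member with an unadjusted p under 0.05. With the replicate block, 0 of the 9 had an adjusted p under 0.05 against 0.552% of all genes, and 1 had an unadjusted p under 0.05 against 15.7%. All 3 pairs of the same number went in the same direction in 2 members, *Mcl1* and *Bcl2l1*, against 37.8% of all genes. Of the 9 tested members, 6 were lower and 3 higher in siDerl1 NSCs, with a median log2 fold change of −0.01, against a median of −0.02 and 54.8% lower over all genes.

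**Figure D2:**
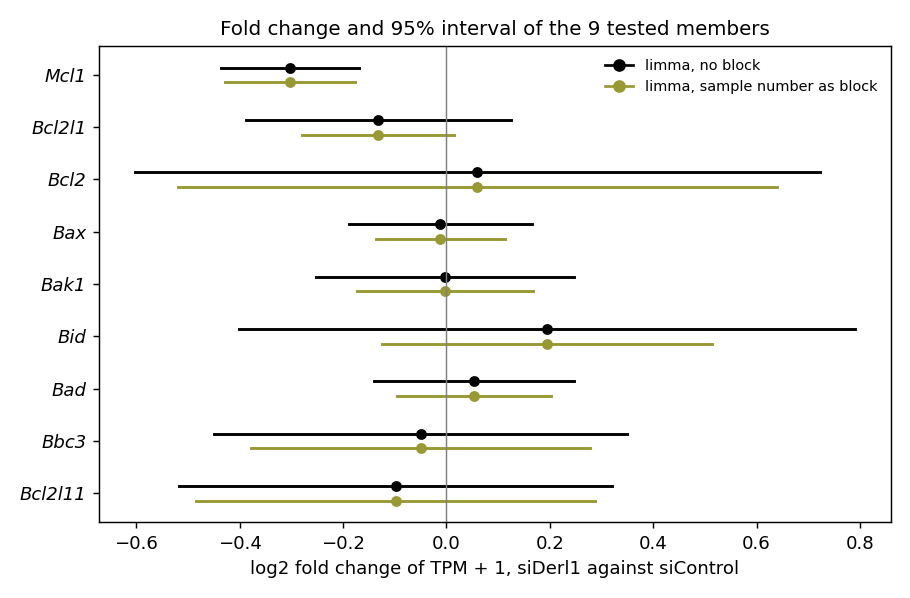
Log2 fold change of TPM + 1, siDerl1 against siControl, for the 9 members tested, with the 95% interval from limma without (black) and with (olive) the sample number as a block. The intervals of *Mcl1* lie below 0 (−0.44 to −0.17 without the block) and those of the other 8 members cross 0; they are not adjusted for the number of genes tested.

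The differences within the sample numbers are the values behind these fits. *Bcl2* differed by 0.84, −0.49 and −0.17 on the log2 scale in numbers 1, 2 and 3, and *Bbc3* by −0.37, 0.29 and −0.07. *Bcl2l11* differed by 0.10, 0.29 and −0.69, the last being the lowest single difference among the members. In *Bad* the differences were 0.13, 0.08 and −0.05, and in *Bax* they were −0.14, 0.02 and 0.08. In each of these 5 members the pairs went both ways.

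**Figure D3:**
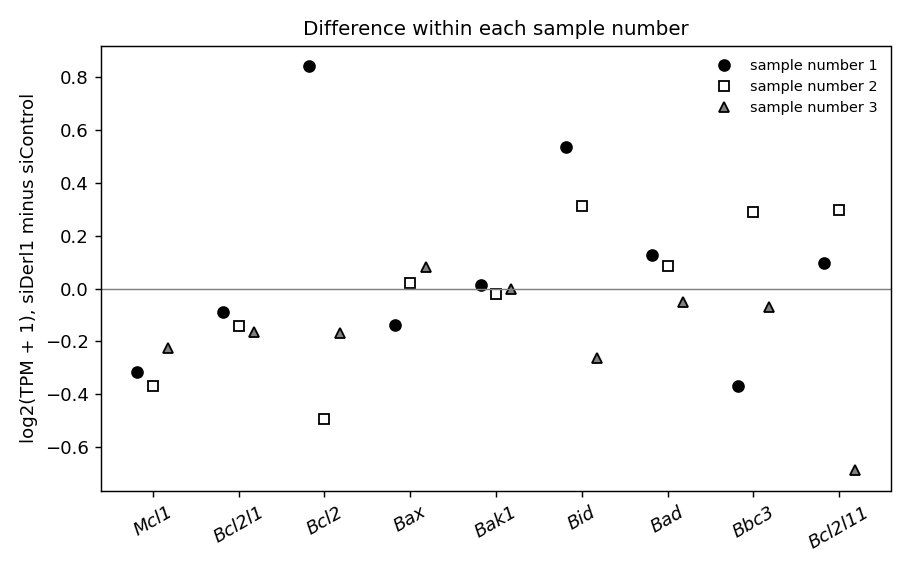
Difference of log2(TPM + 1), siDerl1 minus siControl, for samples of the same number (circle 1, square 2, triangle 3). *Mcl1* (−0.31, −0.37 and −0.22) and *Bcl2l1* (−0.09, −0.14 and −0.16) lie below 0 in all 3 numbers, and the other 7 members lie on both sides.

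Because TPM is a measure per length, the transcript levels of survival and effector genes can be set against each other. The data hold no protein levels. The summed TPM of *Bcl2*, *Bcl2l1* and *Mcl1* over that of *Bax* and *Bak1* was 0.723, 0.823 and 0.748 in siControl NSCs and 0.674, 0.659 and 0.618 in siDerl1 NSCs. The means were 0.765 ± 0.0520 (SD, n = 3) and 0.651 ± 0.0289 (SD, n = 3), a difference of −14.9%, and the groups did not overlap. The summed survival genes measured 204, 219.7 and 214 TPM with siControl and 175, 178 and 185 TPM with siDerl1, whereas the summed effectors were at 278 ± 9.81 and 276 ± 20.9 TPM (SD, n = 3 each). Without *Mcl1* in the sum the ratio was 0.210, 0.266 and 0.259 in siControl NSCs and 0.227, 0.233 and 0.220 in siDerl1 NSCs, and the groups overlapped. The ratio of *Mcl1* to *Bak1* went from 3.71 ± 0.381 to 3.01 ± 0.266 (SD, n = 3 each) with no overlap, and that of *Bcl2l1* to *Bax* from 0.269 ± 0.0367 to 0.246 ± 0.0135 with overlap. These ratios were formed from genes chosen with results known and were given no test.

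**Figure D4:**
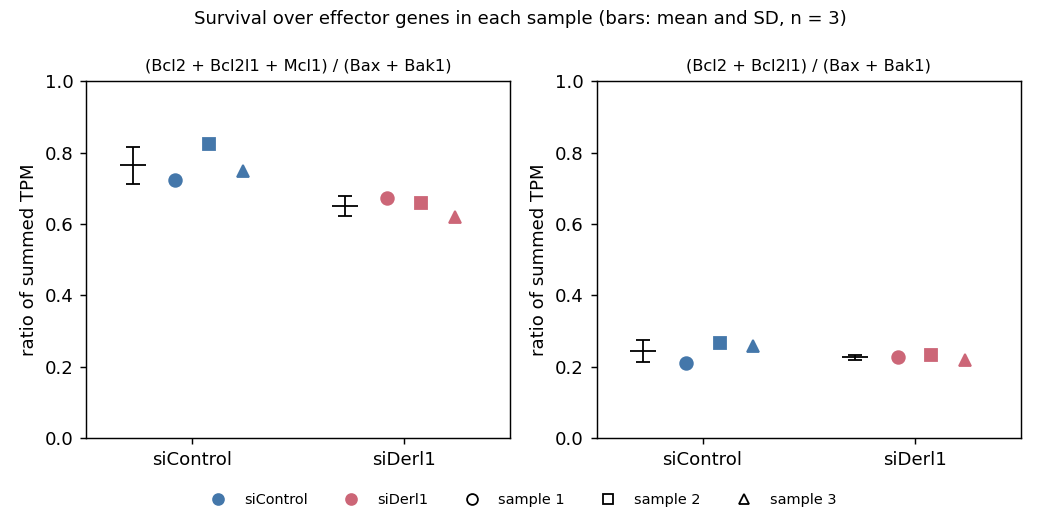
Ratio of the summed TPM of survival genes to that of the effectors *Bax* and *Bak1* in each sample, with *Mcl1* (left) and without it (right), on axes from 0 to 1. Points are samples and bars are the mean and SD of 3 samples. With *Mcl1* the siDerl1 samples (0.618 to 0.674) lie below the siControl samples (0.723 to 0.823), and without it the groups overlap.

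Some members differed by sample number. *Bcl2l1* was at 52.7 and 56.05 TPM in the 2 samples numbered 1 and between 59.6 and 70.5 TPM in the other 4. *Bak1* was at 34.8 and 35.1 TPM in the samples numbered 1 and between 40.4 and 42.1 TPM in the other 4. These were 2 of the 9 tested members with both samples numbered 1 outside the range of the others, against 32.7% of all genes tested, a share below this background. A list of 16 interferon response genes was read because they moved with the sample number in earlier results of these data. Their median log2(TPM + 1) was 3.36 and 2.86 in the siControl and siDerl1 samples numbered 1 and between 5.67 and 6.26 in the other 4. All 16 had a log2 fold change above 0 in siDerl1 NSCs (median 0.43). Their summed TPM was nearly equal in the samples numbered 1, 214.1 with siControl and 213.8 with siDerl1. In numbers 2 and 3 it was 1134 and 1151 with siControl and 2038 and 1905 with siDerl1. In limma 0 of the 16 had an unadjusted or adjusted p under 0.05. With the block 5 had an adjusted p under 0.05 (0.552% of all genes). Without the intensity trend, the block fit called 0 genes of the whole table. The part of the interferon response genes in the levels of *Bcl2l1* and *Bak1* was not tested.

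For the 3 tested members with the largest SD of log2(TPM + 1) over the 6 samples, the genes with the most similar pattern were taken, by the mean absolute difference of centred log2(TPM + 1) over 6 samples among 9162 genes with a mean of at least 5 TPM. The nearest gene to *Bid* was *Phactr2* (mean absolute difference 0.03), followed by *Sult5a1* and *Shank3* (0.05 each). Like *Bid*, *Phactr2* was highest in siDerl1 sample 1 (11.1 TPM) and lowest in siDerl1 sample 3 (4.85 TPM). The nearest to *Bcl2* were *Dll1* (0.08), *Zfp483* and *Anxa1* (0.11 each), and those nearest to *Bcl2l11* were *Orc3* (0.05), *Sgms1* and *Bag4* (0.06 each).

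Around the members, 7 lists of apoptosis genes were read: other BCL2 relatives, caspases and the apoptosome, inhibitors of apoptosis (IAPs), death receptors, DNA damage response genes, Chop and integrated stress response genes, and regulators. Together they held 107 genes, *Bbc3* and *Bcl2l11* among them, of which 90 were tested. Of these, 53 were lower and 37 higher in siDerl1 NSCs (median log2 fold change −0.04), 10 had an unadjusted p under 0.05 (6.70% of all genes did), and 0 had an adjusted p under 0.05 in limma. With the replicate block 22 had an unadjusted p under 0.05 (15.7% of all genes), and 2 passed at an adjusted p under 0.05 (0.552% of all genes): *Diablo* and *Tmbim6*. Both calls were lost in the block fit without the intensity trend, which called 0 genes of the whole table, and the block fit without a filter called 2 genes in all. Past the study's fold limits were 4 of the 90 (2.21% of all genes), and the groups did not overlap in 16 of them (13.6% of all genes).

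Of the caspase and apoptosome genes, 13 were tested and 10 were lower in siDerl1 NSCs (median −0.10), against 54.8% lower over all genes. *Diablo*, whose product leaves the mitochondria through the pores of Bax and Bak1 and blocks the IAPs, measured 119, 119.8 and 124 TPM with siControl and 74.1, 87.2 and 83.9 TPM with siDerl1. With a log2 fold change of −0.56 it was lower in all 3 pairs (limma adjusted p = 0.421, and 0.00884 with the block). *Casp6*, an executioner caspase, measured 22.3, 23.7 and 21.8 TPM with siControl and 30.9, 33.4 and 28.8 TPM with siDerl1, without overlap (log2 fold change 0.44, adjusted p = 0.669 from limma). *Cycs*, which encodes cytochrome c, had a log2 fold change of −0.23 and *Dffa*, the inhibitor of the caspase-activated nuclease, of −0.24. Of the 6 IAP genes tested 4 were higher, and *Xiap* (−0.12), *Birc2* (0.11) and *Birc5* (0.20) overlapped between the groups.

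Of the regulators, 13 of 20 were lower (median −0.04). *Tmbim6*, or Bax inhibitor 1, encodes an ER membrane protein that restrains Bax-dependent death. It measured 791, 865 and 847 TPM with siControl and 604, 706 and 679 TPM with siDerl1, −0.33 on the log2 scale (limma adjusted p = 0.669, and 0.0179 with the block). *Gsk3b*, whose kinase marks Mcl1 for degradation, measured 113, 125 and 119 TPM with siControl and 111, 98.8 and 87.6 TPM with siDerl1 (log2 fold change −0.26). *Stat5b*, a factor upstream of *Bcl2l1*, measured 34.8, 34.0 and 37.9 TPM with siControl and 28.9, 25.1 and 25.2 TPM with siDerl1, without overlap. Its log2 fold change was −0.42 (limma adjusted p = 0.692, and 0.0917 with the block). *Stat5b* and *Tmbim6* were the 2 regulators past the study's fold limits. *Ywhaz*, a 14-3-3 protein that can hold Bad in the cytosol, was the most abundant gene of the list (1157 to 1337 TPM) and had a log2 fold change of −0.11. *Foxo3*, which can induce *Bcl2l11* and *Bbc3*, measured 33.15, 42.3 and 42.35 TPM with siControl and 36.5, 38.4 and 36.45 TPM with siDerl1, with overlap.

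Of 11 other BCL2 relatives tested, 5 were higher and 6 lower (median −0.01). *Bok*, a relative of Bax and Bak1 that can permeabilize mitochondria without them, measured 14.8, 13.4 and 13.4 TPM with siControl and 26.0, 17.4 and 16.2 TPM with siDerl1, without overlap (log2 fold change 0.46, adjusted p = 0.713 from limma). *Bnip3l*, a mitophagy receptor, had a log2 fold change of −0.17 and did not overlap either. *Bcl2l13* (−0.17) and *Bnip3*, the most abundant of the list (190.1 to 505 TPM), overlapped. Of 8 death receptor genes 6 were lower (median −0.06), with *Tnfrsf1a*, *Tnfrsf21* and *Tradd* between −0.05 and −0.16, and all 8 overlapped.

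Genes of the stress responses that can induce *Bbc3*, *Pmaip1* and *Bcl2l11* were read last. *Ddit3*, which encodes Chop, measured 139.9, 138 and 140.2 TPM with siControl and 154, 155 and 163 TPM with siDerl1 (log2 fold change 0.17, adjusted p = 0.704 from limma), while *Bbc3* and *Bcl2l11* overlapped. *Trib3*, a Chop target, was higher in all 3 pairs (log2 fold change 0.54, adjusted p = 0.764), as was *Cebpb* (0.47), and *Atf4* was at −0.03. The 12 tested genes of this list were 6 higher and 6 lower (median 0.07). At an unadjusted p under 0.05, 2 were higher and 0 lower (6.70% of all genes passed) and with the block 6 were higher and 0 lower (15.7% of all genes), and 0 had an adjusted p under 0.05. Of 20 tested DNA damage response genes, 10 were higher and 10 lower (median 0.01). *Mdm2*, which encodes a ubiquitin ligase, overlapped (log2 fold change −0.06). *Cdkn1a* was higher in all 3 pairs (log2 fold change 0.55, adjusted p = 0.743), *Ddb2* was higher without overlap (0.62) and *Zmat3* lower without overlap (−0.19).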

How the data were processed

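Poly(A) RNA libraries of 6 samples (NEBNext Ultra II Directional) were sequenced by the authors. According to the submitters' processing notes, reads were processed with Trimmomatic 0.39, STAR 2.7.3a, RSEM 1.3.2 and edgeR 3.28.1 on rn6, and the deposited values are TPM per gene with 2 decimals. TPM keep no read numbers, so depth and counting error are unknown, and RSEM may split reads of similar genes. Here limma 3.58.1 (R 4.3.3; intensity trend, Benjamini-Hochberg) was fitted to log2(TPM + 1) of 10331 genes whose mean TPM reached 1, and fold changes of low genes are understated on this scale. The fit was also run on simulated data, and the outcome is not given here. Samples of the same number deviated together (r = 0.70, 0.35 and 0.51 over genes, against −0.59 to 0.34 for unlike numbers, of which 2 and 3 correlated too; numbers from the sample titles), so a fit with the number as a block is given where it changes a call. Alternatives covered the pseudocount, filter, scaling, trend, block and samples left out. Named genes were the members, *Derl1*, and of each list the gene with the highest mean TPM, the 3 with the smallest p and those called with the block, beside *Mdm2*, *Foxo3* and the 3 nearest patterns of the 3 most variable members. Cell type genes were named after their values were seen. A gene that the rule names is not reported here. The members and lists were chosen with earlier results of these data known.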

Additional observations from a re-analysis of the deposited data

How the results depend on the processing

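The log2 fold change of *Mcl1* stayed below 0 in 17 of 17 alternatives (−0.34 to −0.27, adjusted p 0.00827 to 0.996 from limma), and so did that of *Bcl2l1* (−0.22 to −0.06). With the replicate block, 57 genes in place of 0 had an adjusted p under 0.05, and the block without samples 1, 2 or 3 gave 506, 74 and 15 genes, without a filter 2 and without a trend 0. Of the members, 1 (*Mcl1*) passed with the block without samples 1. Genes past the fold limits numbered 228, and 366 without a filter, 437 with the block, 603 with the block and no filter, 482 with the block and no trend, and 591, 446 and 465 with the block without samples 1, 2 or 3. Leaving out 1 sample gave 197 to 350 genes, 350 of them without siControl sample 1. *Mcl1* was the 1 member past these limits with the block without samples 3 and without siControl sample 3, so that leaving out 1 sample gave 0 to 1 members. *Derl1* passed with the block (−1.03, adjusted p 0.00884) and with the block without samples 1, 2 or 3 (−0.83, −1.10 and −1.15; adjusted p 1.81e-09, 0.000147 and 0.0172), and not with the block without a filter (0.104) or without a trend (0.229). Of the other apoptosis genes, 22 in place of 10 had an unadjusted p under 0.05 with the block. The survival to effector difference was −7.47% without *Mcl1*, and −17.2% to −11.6% when 1 sample was left out.

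Values of members near 0 turned. Median-of-ratios scaling gave *Bax* 0.0040 and *Bak1* 0.013. The block without samples 1 gave *Bcl2* −0.33, *Bax* 0.051 and *Bbc3* 0.11, without samples 2 *Bak1* 0.0069, and without samples 3 *Bcl2l11* 0.20. Leaving out 1 sample gave *Bcl2* −0.21 to 0.23, *Bax* −0.077 to 0.028, *Bak1* −0.082 to 0.069, *Bid* −0.044 to 0.49, *Bad* −0.0017 to 0.13, *Bbc3* −0.14 to 0.11 and *Bcl2l11* −0.20 to 0.055. The causes were not tested. TPM without read numbers limit what can be said of *Pmaip1* and *Bcl2*.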

Other observations

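The 10 mitosis genes read beside the survivin gene *Birc5*, which serves both cell division and the inhibition of caspases, gave 3 higher and 7 lower in siDerl1 NSCs (median log2 fold change −0.04), and 0 of them had an adjusted or an unadjusted p under 0.05 in limma, with or without the replicate block. *Birc5* itself measured 136, 108 and 113 TPM with siControl and 150.6, 148 and 112.6 TPM with siDerl1, with overlap. The summed TPM of the BH3-only members were 133, 127 and 143 in siControl and 150.2, 147 and 125 in siDerl1 NSCs, with overlap.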
